A study of Bos taurus with 2 samples.

Results

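The genes described here carry out the activating and conjugating steps of ubiquitin and ubiquitin-like modification, together with the adaptors of NEDD8 conjugation. They were taken by name from a bovine expression array: every non-control probe whose gene name began with UBE2 or DCUN1D, or was UBA followed by a digit. This gave 46 of the 32429 gene names on the array, with 34 UBE2, 7 UBA and 5 DCUN1D names, read by 90 of its 51282 probes on 97 spots. Of these names, 17 had 1 probe and 29 had several.

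The array was hybridized with testis RNA of adult bulls, and crossbred bulls were compared with Zebu bulls. The crossbred bulls were Holstein Friesian crosses and the Zebu bulls were of the Tharparkar breed, all 24 months old and without any treatment named in the labels. From every bull 1 testis was taken by castration under sedation. In each group the RNA of 3 bulls was pooled, labelled with Cy3 and put on 1 array, so that the spread between bulls was not measured. A replicate check of the differences was therefore not possible, and no p-values were computed. The RNA came from slices cut across the middle of the testis and not separated by cell type. In such slices, fewer cells of a type and less RNA per cell cannot be told apart.

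Ubiquitin is first activated by an E1 enzyme, passed to the active-site cysteine of an E2 conjugating enzyme, and then attached to a target with the help of an E3 ligase. Small relatives of ubiquitin, among them NEDD8, SUMO, ISG15 and UFM1, follow the same route with enzymes of their own. NEDD8 is attached to cullins, the scaffolds of a large family of E3 ligases, and the DCUN1D proteins hold the NEDD8-loaded E2 against the cullin. In the testis, ubiquitin conjugation is known for its part in the removal of histones and of surplus cytoplasm as spermatids mature, and male mice without Ube2b or Ube2j1 are infertile.

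Each value is a normalized log2 signal, that is, the log2 of the scanner's processed signal minus the 75th percentile of that array, so that 0 corresponds to a signal of 1176 in crossbred and 1233 in Zebu. Differences are crossbred minus Zebu on this log2 scale. A name is read from its brightest probe, and is called higher or lower when the difference reaches 1.5 in size, a linear fold of 2.83. Spots of the same probe differed by an SD of 0.29 in crossbred and 0.18 in Zebu. These values pool 5960 probes spotted more than once, at every brightness above background. Taken as independent, they give an SD of 0.34 for the difference of 1 spot. This SD holds only the spread within an array, and no variation between bulls, labelling reactions or arrays. Of the members' probes, 83 had a single spot, and the 7 with 2 spots had SDs of up to 0.14 in crossbred and 0.11 in Zebu. Over the whole array, the software marked 72.0% (crossbred) and 74.3% (Zebu) of the spots as well above background. All 46 names were well above background on both arrays, as were 88 of their 90 probes.

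The probes of the genes with the largest differences are shown first, since each difference rests on 60 bases of 1 transcript. Positions are those given with the array for the Btau_3.1 assembly, and sequences run 5′ to 3′ on the transcript strand. For probes whose letters lie near a polyadenylation signal or outside a clear reading frame, a stretch of 30 bases is shown. Capitals mark the hexamer AATAAA in the DCUN1D1 probe, and in the UBE2R2 probe a run of 9 codons that begin with GA and so encode acidic residues, from the acidic tail that UBE2R2 is known for.
DCUN1D1, chr1:86062717-86062776, plus strand: catagtctgtacAATAAAtacaacggaaaa
DCUN1D2, chr12:84830718-84831493, minus strand: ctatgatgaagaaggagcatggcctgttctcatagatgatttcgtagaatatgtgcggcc
DCUN1D3, chr25:19734612-19734671, minus strand: ctttctctgccttgtatctgaaagggctct
UBE2R2, chr8:79476423-79476482, plus strand: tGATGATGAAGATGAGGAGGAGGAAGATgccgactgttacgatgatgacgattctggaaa
UBE2J1, chr9:63493093-63499132, plus strand: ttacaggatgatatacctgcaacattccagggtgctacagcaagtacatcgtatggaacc
The DCUN1D2 probe spans 776 bases and the UBE2J1 probe 6040 bases of the assembly, so that both were placed across an intron. The longest run shared by any pair of probes of different member genes was 14 bases, between UBE2D3 and UBE2D2. Likeness beyond such unbroken runs was not measured.

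UBE2R2, DCUN1D2, UBE2J1, DCUN1D3 and DCUN1D1, 5 of the 46 members (10.9%), were higher in the crossbred testis. Under quantile normalization, or with the 75th percentile over well measured probes, the number was 4, without DCUN1D1. By the same rule 6.32% of the 22842 names measured above background on both arrays were higher, and 7.12% of those above background on at least 1 array. No member was lower, against 1.74% and 2.92% of all names. The median difference of the members was 0.21, with a range from -0.85 to 2.26, and that of all names was -0.04. Above 0 were 30 members and below 0 were 16, while 47.7% of all names lay above 0. In size, 24 members differed by under 0.5, against 52.2% of all names. By 1 or more, 7 members were higher, against 12.0% of all names, and 0 were lower, against 7.07%. UBE2G2 and DCUN1D4 came next below the threshold, at 1.38 and 1.05. Markers of spermatids were also higher in crossbred, with 6 of 9 called and a median difference of 1.71, and their part in these values was not tested.

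**Figure D1:**
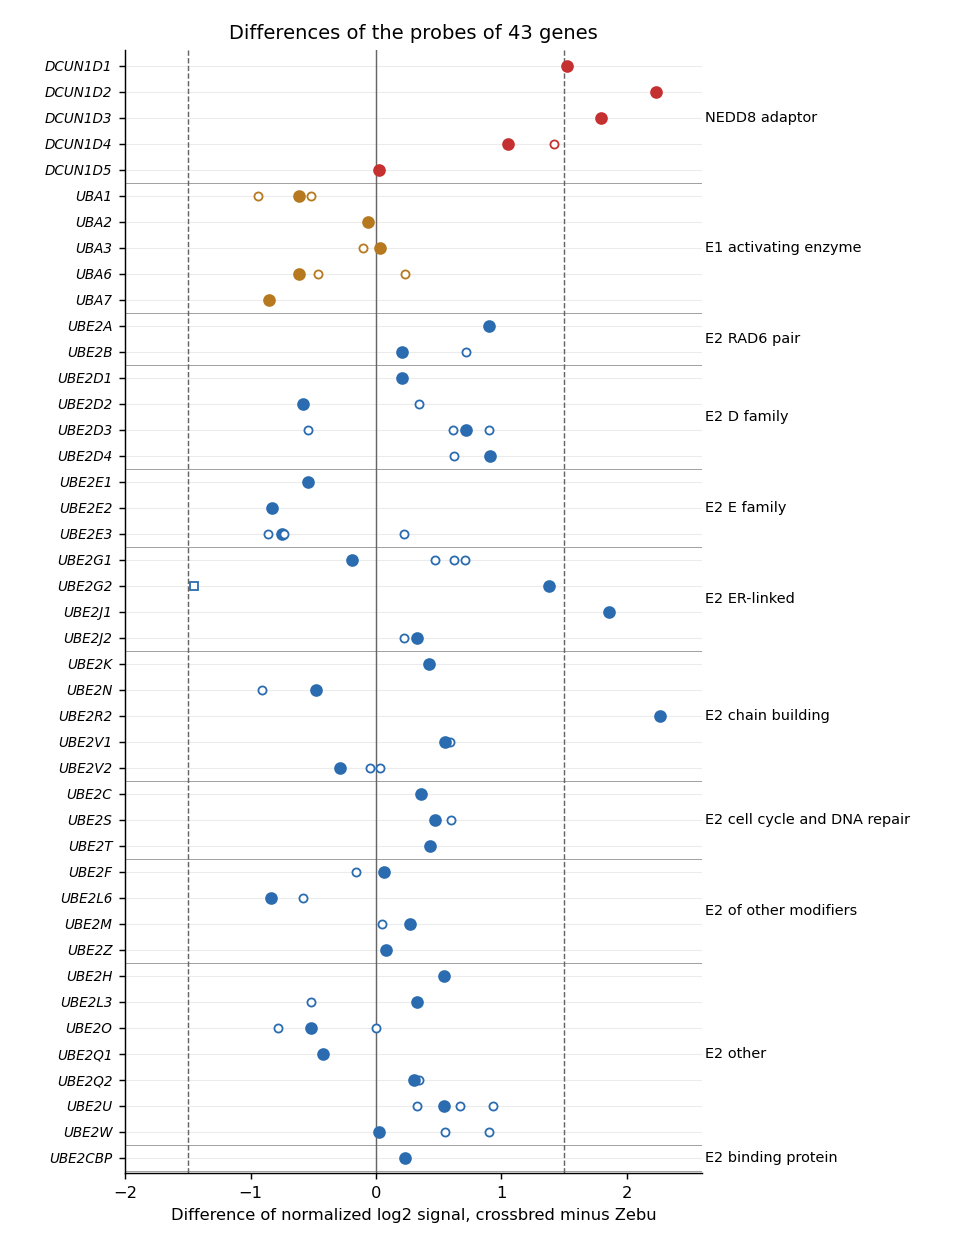
Difference of normalized log2 signal, crossbred minus Zebu, for 81 probes of 43 of the genes, all measured above background on both arrays, grouped by role. Filled points are the brightest probe of a gene, open points its other probes, the open square is the UBE2G2 probe inside a dark patch of the crossbred array, and dashed lines mark 1.5 in size. The right-hand line is passed by DCUN1D1, DCUN1D2, DCUN1D3, UBE2R2 and UBE2J1.

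By role, the differences lay as follows. The 5 DCUN1D adaptors had a median difference of 1.52, with 3 of 5 higher. The 34 UBE2 names had a median of 0.25, with 2 higher (5.88%), and the 7 UBA names a median of -0.08, with none higher. Of all names, 6.32% were higher. Without the DCUN1D names, 2 of 41 members were higher (4.88%) and the median was 0.08. The share of members above that of all names therefore rested on the 5 DCUN1D names. A list of 5 names is small, and no test of the differences between these groups was possible.

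**Figure D2:**
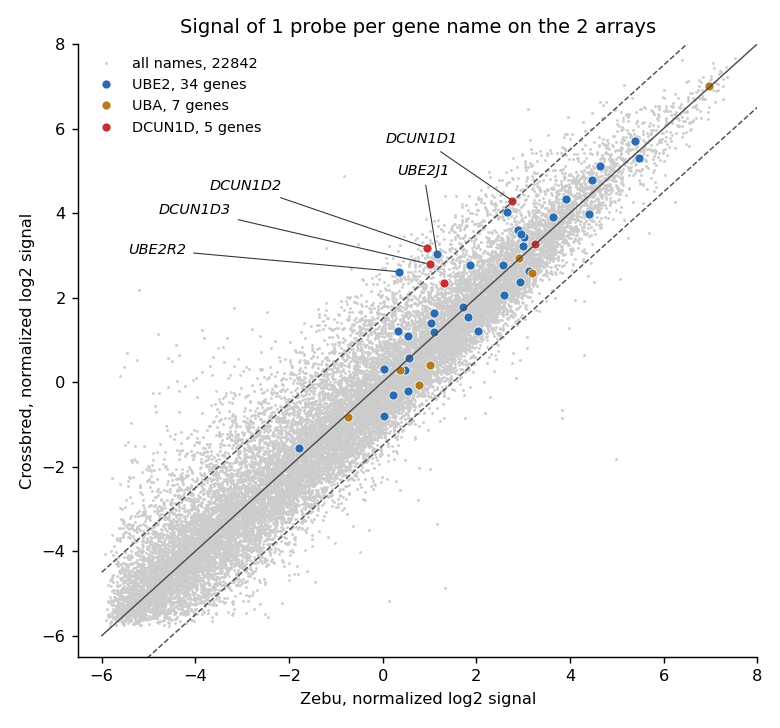
Normalized log2 signal on the Zebu array (horizontal) and the crossbred array (vertical) for the 22842 names above background on both arrays, 1 probe per name, with the 46 genes in colour. The solid line is equal signal and the dashed lines lie 1.5 away from it. Of the labelled genes, UBE2J1, DCUN1D2, DCUN1D3 and UBE2R2 had Zebu signals between 0.35 and 1.16, and DCUN1D1 had 2.77.

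DCUN1D adaptors bind the E2 of NEDD8 and the cullin at the same time, and so speed the transfer. DCUN1D1, the best studied member, measured 4.29 in crossbred and 2.77 in Zebu testis. Its difference was 1.52, a fold of 2.86, which is the closest of the 5 calls to the threshold. It was 1.36 under quantile normalization and 1.49 with the 75th percentile over well measured probes, and both settings end this call. DCUN1D2 measured 3.18 and 0.94, a difference of 2.23 and a fold of 4.70. DCUN1D3, which is tethered to membranes, measured 2.79 and 1.0, a difference of 1.79 and a fold of 3.47. All 3 genes were brighter in crossbred, each at a single probe.

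DCUN1D4, a nuclear member of the family, was the only adaptor with a second probe. Its brightest probe measured 2.35 and 1.30, a difference of 1.05, and the other probe measured 2.07 and 0.65, a difference of 1.42. Both DCUN1D4 probes were brighter in crossbred and neither reached the threshold. DCUN1D5, likewise a nuclear member, measured 3.27 and 3.25. Its difference of 0.02 was smaller than the SD between spots, so that 4 of the 5 adaptors differed by 1 or more and the fifth did not. The summed signal of the 5 adaptors, in multiples of the 75th percentile, was 50.29 in crossbred and 22.74 in Zebu.

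Signals around the adaptor spots were not raised. Over the 18 nearest spots, the median difference was -0.35 at DCUN1D1, -0.35 at DCUN1D2, -0.10 at DCUN1D3, -0.39 and -0.13 at the DCUN1D4 probes, and -0.14 at DCUN1D5. None of their 6 adjacent spots was higher by 1.5, and 1 spot beside DCUN1D2 was lower by as much.

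None of the other NEDD8 genes was called. NEDD8 has its own E1, made of NAE1 and UBA3, and a pair of E2 enzymes, UBE2M and UBE2F. UBA3 measured 2.94 and 2.91, a difference of 0.03, with -0.10 at its other probe. UBE2M, which serves most cullins, measured 3.90 and 3.63, a difference of 0.27. UBE2F, which serves CUL5, measured 1.78 and 1.71, a difference of 0.06. All 3 differences are within the SD between spots.

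Among the 23 further genes of the route that were on the array, none was higher, against 6.32% of all names, and none lower, against 1.74%. Their median difference was -0.10. NEDD8 itself measured 4.59 and 4.42, a difference of 0.17, and NAE1 3.13 and 3.25, a difference of -0.12. SENP8, the protease that matures NEDD8, measured 0.94 and 0.31, a difference of 0.63. The cullins lay on both sides of 0, from CUL1 at 5.96 and 5.35, a difference of 0.61, to CUL7 at -0.09 and 1.36, a difference of -1.45. RBX1, the RING partner of most cullins, differed by -0.10. CAND2, a relative of the cullin exchange factor CAND1, differed by -1.14. The 8 COPS genes and GPS1, subunits of the signalosome that removes NEDD8 again, differed by -0.33 to 0.53.

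**Figure D3:**
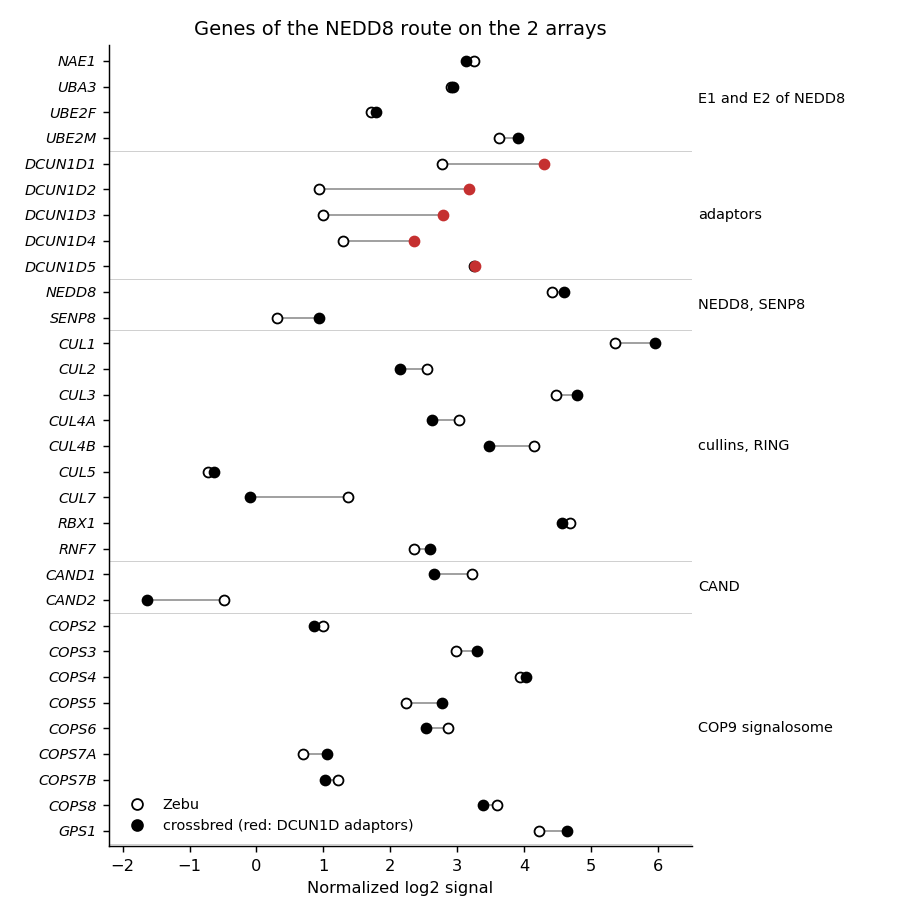
Normalized log2 signal of the NEDD8 genes on the Zebu array (open points) and the crossbred array (filled points), 1 probe per gene, grouped by role. Lines join the points of a gene. DCUN1D1 to DCUN1D4 shifted to the right in crossbred by 1.05 to 2.23, while DCUN1D5, the NEDD8 E1 and E2 genes and NEDD8 lay within 0.27 of their Zebu values.

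The E1 enzymes were level or lower in crossbred, without any call. UBA1, the main ubiquitin E1, lies on chromosome X and measured 2.58 and 3.19, a difference of -0.61. The 3 other UBA1 probes gave -0.94, -0.61 and -0.52, so that all 4 probes were dimmer in crossbred. UBA7, the E1 of ISG15, measured -0.06 and 0.78, a difference of -0.85 and the lowest of all members.

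UBA6, a second E1 for ubiquitin, gave no single direction. Its brightest probe measured 0.41 and 1.02, a difference of -0.61, while its other probes differed by -0.46 and 0.23. UBA2, the catalytic part of the SUMO E1, measured -0.82 and -0.75, a difference of -0.06. The 6 E1 names had a median difference of -0.34.

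UBE2R2 had the largest difference of the 46 members. Together with CDC34, it is an E2 that lengthens ubiquitin chains on targets of cullin ligases. It measured 2.61 in crossbred and 0.35 in Zebu, a difference of 2.26 and a fold of 4.79. The median of the 18 nearest spots was 0.15, and 1 adjacent spot was also higher by 1.5. CDC34, which falls outside the name rule, measured 5.43 and 3.73, a difference of 1.71, but its other probe differed by -0.96. The UBE2R2 and CDC34 probes shared no run longer than 5 bases.

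UBE2J1 is anchored in the membrane of the endoplasmic reticulum and helps to remove misfolded proteins there. It measured 3.02 in crossbred and 1.16 in Zebu, a difference of 1.86 and a fold of 3.63, at a place on the array where the 18 nearest spots had a median of -0.38. A further probe, named only as the transcript cluster TC415474 and described on the array as similar to UBE2J1, measured -1.10 and -0.68, a difference of -0.42. Whether the 2 probes read the same transcript was not tested.

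The other E2 enzymes linked to the endoplasmic reticulum gave smaller or divided values. UBE2J2 measured 5.71 and 5.38, a difference of 0.33, with 0.22 at its other probe. UBE2G2, which works with ligases of that membrane, measured 4.03 and 2.66, a difference of 1.38. Its other probe measured 1.24 and 2.69, a difference of -1.45, and is the only member spot that lay in a patch of the array with shifted signal. In that patch the 544 spots had a median difference of -1.37, so that the UBE2G2 value there was close to that of its surroundings. UBE2G1 measured 0.28 and 0.47, a difference of -0.19, while its 3 other probes differed by 0.47, 0.62 and 0.71.

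UBE2A and UBE2B, the mammalian forms of yeast RAD6, ubiquitinate histone H2B and act in DNA damage tolerance. UBE2A measured 1.22 and 0.32, a difference of 0.90. UBE2B measured 2.77 and 2.56, a difference of 0.21, and its other probe 2.67 and 1.96, a difference of 0.72. These 3 probes, all above background on both arrays, were brighter in crossbred, and none reached the threshold. The 18 nearest spots had a median of -0.46 at the UBE2A probe. At the UBE2B probes it was 0.20 and 0.43, so that the value of 0.21 matched its surroundings. A further UBE2A probe near the end of the transcript, at -6.47 and -5.30, was well above background in Zebu only. With crossbred set to the lowest signal well above background on that array, -5.78, its difference was -0.47. Both signals lay near background, so the direction at this probe is uncertain.
UBE2A, start at base 283 of its transcript: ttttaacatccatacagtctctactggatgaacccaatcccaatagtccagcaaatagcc
UBE2A, start at base 1371 of its transcript: gtcttttgtgaaAATAAAtcctgatgaatc
Neither UBE2A probe was placed on the assembly, and capitals again mark AATAAA.

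The D and E families are close relatives that work with many ligases. UBE2D4 measured 2.78 and 1.87, a difference of 0.91, with 0.62 at its other probe. UBE2D3 measured 3.61 and 2.89, a difference of 0.72, with 0.61, 0.90 and -0.54 at its other probes. UBE2D1 measured -1.57 and -1.78, a difference of 0.21. UBE2D2 measured 2.36 and 2.94, a difference of -0.58, with 0.34 at its other probe. The D family had a median difference of 0.46, with 3 of 4 genes above 0 and UBE2D2 below.

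In the E family all 3 genes were dimmer in crossbred, with a median of -0.75 and none at the threshold. UBE2E1 measured -0.31 and 0.22, a difference of -0.54. UBE2E2 measured -0.80 and 0.03, a difference of -0.83. UBE2E3 measured -0.21 and 0.53, a difference of -0.75, and of its other probes, those at -0.86 and -0.73 lay beside it and 1 near the start of the transcript differed by 0.22. A pair of probes over matching stretches of UBE2D3 and UBE2E3 is shown with the longest run they share, 9 bases, in capitals. Base by base, their letters also match at many other positions. Whether either probe also binds the transcript of the other gene was not tested.
UBE2D3, chr6:23649755-23652070, plus strand: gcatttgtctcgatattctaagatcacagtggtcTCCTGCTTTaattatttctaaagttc
UBE2E3, chr2:16132488-16132547, minus strand: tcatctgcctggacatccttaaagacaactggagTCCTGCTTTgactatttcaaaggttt
The UBE2D3 probe measured 3.44 and 2.82, a difference of 0.61, and the UBE2E3 probe -0.33 and 0.52, a difference of -0.86.

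UBE2N and its partners without an active site, UBE2V1 and UBE2V2, build the ubiquitin chains used in signalling and DNA repair. UBE2N measured 2.64 and 3.12, a difference of -0.48, with -0.91 at its other probe. UBE2V1 measured 3.50 and 2.96, a difference of 0.55, with 0.59 at its other probe. UBE2V2 measured 1.54 and 1.83, a difference of -0.29, with values of -0.05 and 0.03 at its other probes. The enzyme and its partner UBE2V1 therefore lay on opposite sides of 0 at every probe. At the brightest probes, however, the 18 nearest spots had shifted medians, of -0.47 at UBE2N and 0.43 at UBE2V1. At their other probes these medians were -0.13 and -0.26. UBE2K, which also lengthens chains, measured 3.44 and 3.02, a difference of 0.42.

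The E2 enzymes of the cell cycle and DNA repair were slightly brighter in crossbred, with a median of 0.43. UBE2C and UBE2S serve the anaphase-promoting complex, and they measured 1.39 and 1.03, a difference of 0.36, and 5.12 and 4.65, a difference of 0.47. The other UBE2S probe measured 1.42 and 0.81, a difference of 0.60. UBE2T, of the Fanconi anaemia pathway, measured 4.34 and 3.91, a difference of 0.43. None of these values reached the threshold.

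Of the E2 enzymes for other modifiers, UBE2L6 stood lowest. It serves ISG15 downstream of UBA7, and measured 1.2 and 2.04, a difference of -0.84, with -0.58 at its other probe. ISG15 itself measured -0.81 and 0.00, a difference of -0.81, so that the modifier, its E1 and its E2 were all dimmer in crossbred, each short of the threshold. UBE2Z, the E2 that takes ubiquitin from UBA6, measured 1.18 and 1.1, a difference of 0.08.

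The remaining E2 names lay between -0.52 and 0.54. UBE2H measured 1.09 and 0.55, a difference of 0.54, and UBE2U 1.63 and 1.1, a difference of 0.54 with all 3 other probes above 0. UBE2L3, the partner of HECT ligases and parkin, measured 4.79 and 4.46, a difference of 0.33, with -0.52 at its other probe. UBE2Q1 measured 3.98 and 4.4, a difference of -0.42. UBE2O, UBE2Q2 and UBE2W differed by -0.52, 0.30 and 0.02. UBE2CBP, an E2-binding protein rather than an E2, differed by 0.23.

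Probes of 1 gene did not always give the same sign. Of 27 names with several probes above background on both arrays, 11 had all probes above 0, 11 had probes on both sides of 0, and 5 had none above 0, counting UBE2O with 1 probe at 0.00. The range between the probes of a name had a median of 0.42, from 0.04 to 2.83, the last of these at UBE2G2 with its spot in the dark patch.

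Where the probes of 1 transcript were compared by position, the probe nearer the 3′ end tended to be lower. This comparison was chosen after the values were seen. The RNA had been primed with oligo dT. In 25 member transcripts with probes at least 60 bases apart and outside the patches, the downstream probe gave the lower difference in 20 (80.0%), counting UBA1, where the gap was under 0.01. The median of the downstream minus the upstream difference was -0.37. Over all 7207 transcripts of this kind on the array it was lower in 57.6%, with a median of -0.08. The downstream value was lower by 0.5 or more in 9 of the 25 (36.0%), against 22.4% of all transcripts, and higher by as much in 0, against 9.75%. With normexp background correction it was lower by 0.5 or more in 6 of the 25, against 20.2% of all transcripts, and the downstream value was lower in 76.0%, against 61.5%. In most of the 25 transcripts the upstream probe was also the dimmer. In UBA6, UBE2D3, UBE2F, UBE2L3, UBE2N and UBE2O it was the brighter, and there too the downstream difference was lower. Position and brightness were not separated, no test of this contrast was made, and its cause was not tested.

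The widest gap was in UBE2D3, where probes at bases 333, 504 and 551 of the transcript differed by 0.72, 0.61 and 0.90, and the probe at base 1420 by -0.54. That probe, whose hexamer is in capitals, had its pair of spots within an SD of 0.08 in crossbred and 0.04 in Zebu.
UBE2D3, chr6:23654905-23654964, plus strand: atatagcactgAATAAAtgatgcaagttgt
UBE2E3, UBE2D2, UBE2G1, UBE2W and UBE2L3 followed, with the downstream value lower by 0.85 to 0.95. The sign in crossbred changed between these probes, except in UBE2W, where the values were 0.90 upstream and 0.02 downstream. The smaller value was 0.22 in UBE2E3, 0.34 in UBE2D2, -0.19 in UBE2G1 and 0.33 in UBE2L3. These lie near or below the SD between spots, 0.34, so that the changes of sign are weak. At these probes the 18 nearest spots had medians of 0.66, -0.11, -0.10 and 0.46. In DCUN1D4 the values were 1.42 and 1.05. The letters AATAAA were present in 11 of the 90 member probes (12.2%) and in 8.35% of all probes, and their reverse complement in 8.89% and 3.30%.

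**Figure D4:**
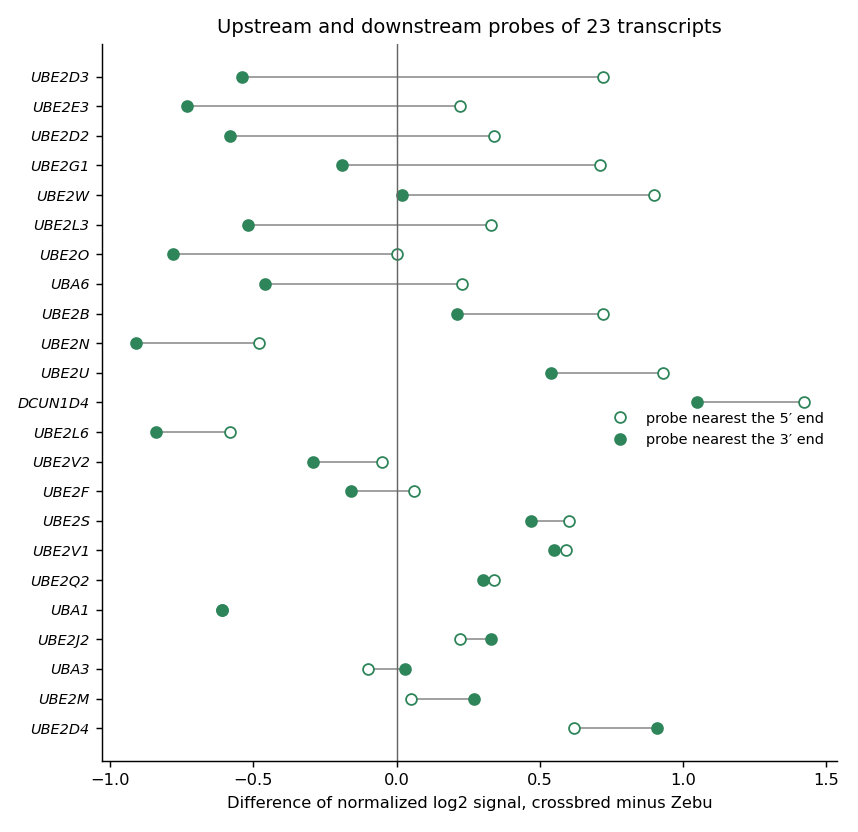
Difference of normalized log2 signal, crossbred minus Zebu, at the probe nearest the 5′ end (open) and nearest the 3′ end (filled) of 23 of the member transcripts, ordered by the gap between them. In 19 of the 23 the filled point lies to the left, counting UBA1 with a gap under 0.01, and the widest gap, in UBE2D3, runs from 0.72 to -0.54.

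Other genes of the pathway, listed by name with earlier results of these data known, lay on both sides of 0. Of 66 listed genes 64 were on the array, with a median of 0.02. Of these, 2 (3.12%), CDC34 and AKTIP, were higher, against 6.32% of all names. The number lower was 0, against 1.74%. AKTIP, an E2-like protein without catalytic activity, measured 2.68 and 0.87, a difference of 1.81, but 0.07 at its other probe. Both calls thus rested on 1 of 2 probes. The ubiquitin genes UBB and RPS27A differed by 0.38 and -0.54. The 10 genes of the SUMO route had a median of 0.09, and the 14 partner ligases a median of -0.06, from HUWE1 at -1.15 to FZR1 at 1.21.

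**Figure D5:**
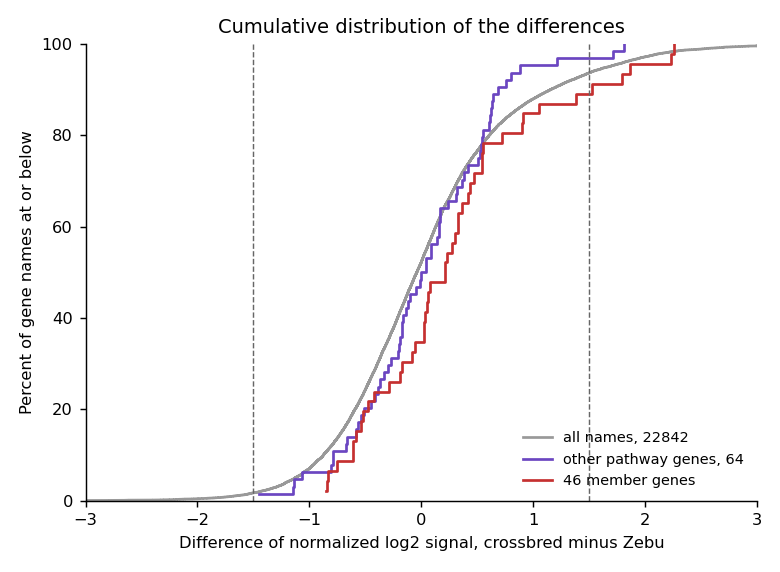
Cumulative share of gene names (percent, vertical) at or below a given difference of normalized log2 signal, crossbred minus Zebu (horizontal), for all 22842 names, the 46 genes and 64 other pathway genes, with dashed lines at 1.5 in size. The medians are -0.04, 0.21 and 0.02, and no member lies below -0.85.

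Markers of the cell types of the testis also differed between the arrays. Of 10 spermatid markers 9 were on the array, 6 were higher in crossbred and 0 lower, with a median of 1.71 and a summed signal of 549.6 in crossbred and 283.5 in Zebu. All 7 Sertoli markers on the array were below 0, with a median of -0.90 and sums of 153.5 and 240.9, and the 5 markers of peritubular and smooth muscle cells had a median of -0.77 and sums of 29.29 and 51.59. Of the Leydig markers 2 of 7 were lower, against 1.74% of all names, with a median of -0.57. HSD17B3 alone among them lay above 0, at 0.93. Their sums of 89.6 and 133.5 came mostly from INSL3, which differed by -0.44. Spermatocyte markers had a median of 0.41 and sums of 31.54 and 23.79. Spermatogonial markers had a median of -0.66, with 6 of 8 below 0, while STRA8 and DDX4 differed by 0.59 and 0.77. Their sums of 36.83 and 47.64 came mostly from UCHL1. Endothelial markers had a median of 0.08, macrophage markers 0.20 and lymphocyte markers 0.25, with AIF1 and MS4A1 the only ones of these called higher. No defining marker of germ, Sertoli, Leydig or peritubular cells was at background on either array. The part of these shifts in the differences of the conjugation genes, DCUN1D1, DCUN1D2, DCUN1D3, UBE2R2 and UBE2J1 included, was not tested.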

How the data were processed

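Total RNA from testis was reverse transcribed from oligo dT, labelled with Cy3 and hybridized to 2 arrays of 1 slide, 1 pool of 3 bulls per group. The authors deposited the processed signal of Agilent Feature Extraction 11.5.1.1 for each spot, an intensity with background subtracted and not normalized between arrays, with the mean spot and local background intensities. They also deposited log2 values, shifted by the 75th percentile of each array.

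Here, control spots and 13 outlier spots were left out, and 0 spots were saturated. Processed signals were taken to log2, the spots of each probe were averaged, and the array's 75th percentile over non-control probes was subtracted. The median signal of a spot was 126 on the crossbred and 129 on the Zebu array, over a local background of 34 and 35.5. A name was read from the probe with the highest mean of both arrays. A call needed a log2 difference of 1.5 in size and a brighter side well above background. The deposited log2 values correlated with those computed here at r = 0.9994 and 0.9998, across probes.

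With 1 array per group no test was made, and precision is limited by there being 2 arrays in all. The members and gene lists were chosen with earlier results of these data known. Genes were named if they were UBA or DCUN1D genes, past the threshold, among the 5 highest or 5 lowest UBE2 genes, discordant between probes by 1.5, or on a list by role, and other pathway genes if past the threshold. UBE2O, UBE2Q2, UBE2W, UBE2CBP and further pathway genes were named outside this rule, after their values were seen. Some genes are counted but not reported by name here.

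Of the 46 names, 45 are symbols in a RefSeq gene table of ARS-UCD2.0 and 1, UBE2CBP, is a synonym there. Positions are those given with the array, for Btau_3.1. CUL9 and ANAPC2 were not analysed here, nor was the real-time PCR of the study. As alternatives, normexp (offset 50), other shifts, quantile normalization, the deposited log2 values, other filters on dim probes, other probes of a gene, other thresholds and leaving out the marked patches were tried. The steps were run on simulated data with changes well past the threshold and less noise than between the spots here. That run does not bear on calls near the threshold. The software was Python 3.11.15 (numpy 2.4.6, pandas 2.3.3, scipy 1.17.1, matplotlib 3.10.9) and R 4.3.3 (limma 3.58.1).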

Additional observations from a re-analysis of the deposited data

How the results depend on the processing

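No member was lower under any alternative. The number of members higher was 4 with the 75th percentile over well measured probes and with quantile normalization, 7 at a threshold of 1, 2 at a threshold of 2, and 5 otherwise. The median difference of the members ran from 0.12 under quantile normalization to 0.21 under the other settings of scaling, filter and probe. With the probe nearest the 5′ end it was 0.33 and with that nearest the 3′ end 0.04, both chosen after seeing the data. Of the other pathway genes, 2 were lower when every probe was counted on its own, and 0 were higher when all probes of a gene were averaged. This average moved UBE2A to 0.21, UBE2D2 to -0.12, UBE2G1 to 0.40, UBE2G2 to -0.04 and UBE2L3 to -0.09. The cause was not tested. The remaining 373 of 378 recomputed values of 42 named genes moved by less than the SD between spots. DCUN1D1 ran from 1.36 to 1.60, across the threshold. The downstream minus upstream median was -0.30 under normexp, where 6 of 25 transcripts in place of 9 were lower by 0.5 or more, and -0.37 with the deposited log2 values.

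Over all names, 1762 were higher and 722 lower, so that 70.9% of the calls were higher. Under normexp the numbers were 1030 and 169, or 85.9%. Scaling alternatives moved the median of all names by 0.05 or less.

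No paired analysis was possible because each group had 1 array, and leaving out a replicate was not run for the same reason. Of the 90 member probes 83 rest on a single spot, for which differences near 0.34 are within the SD between spots.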

Other observations

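Several transcript clusters are described on the array as similar to E2 enzymes but carry no gene symbol, and were chosen after their values were seen. TC447647, described as similar to UBE2A, measured -0.56 in crossbred and -0.16 in Zebu, a difference of -0.40. TC416952, described as similar to UBE2B, measured -0.85 and -0.32, a difference of -0.53. TC417002, described as an E2 variant 1, measured 1.6 and 1.43, a difference of 0.17. TC433814, described as similar to UBE2J1, was not well above background on either array.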
